A study of Mus musculus with 10 samples.

Results

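Oligodendrocyte lineage and myelin genes were followed in the hippocampus of Dp3Yah mice and their control littermates. The set held 36 genes named by what they are known to do, among 19939 genes measured: 8 genes of precursors and newly forming oligodendrocytes, with Olig1 and Olig2 at their head, and 28 genes of mature, myelinating oligodendrocytes. The rule that lists them uses what the genes are known to do and no measured value, although the list was drawn up with earlier results of these data known. Each of the 36 had exactly 1 probe set assigned to it alone, and all 36 were above background, a log2 value of 5.09 that is the 95th percentile of the olfactory receptor genes' means. Among them were the defining markers of the lineage, Mbp, Mog, Sox10 and Olig2.

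Dp3Yah mice carry a duplication of a mouse chromosome 16 interval that the study names Hspa13-App. It is homologous to a part of Hsa21, the human chromosome present in an extra copy in Down syndrome. Its genes are in 3 copies against 2 in controls, but by the study only 2 complete copies of App are expressed. The interval is therefore taken here from Hspa13 to Gabpa. RNA came from the whole right and left hippocampus of males aged 16 weeks, 5 Dp3Yah and 5 control, with 1 array per mouse. The labels give C57BL/6N as the background of both groups, while the study's methods describe a backcross towards C57BL/6J. The duplication is carried in every cell. As a model it covers only a stretch of the Hsa21 homology, and Olig1 and Olig2, whose human counterparts lie on Hsa21, are outside it. On GRCm38.p6 the interval runs over chr16:75755190-84863783. Olig2 starts 6.36 Mb and Olig1 6.41 Mb beyond its distal end, and Apod, the only other of the 36 genes on chromosome 16, lies 44.4 Mb before its proximal end. None of the 36 genes lies in the interval.

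Oligodendrocytes wrap axons in myelin, a stack of membrane rich in cholesterol and galactolipids that is held together by a few abundant proteins. They arise from precursor cells that carry the PDGF-A receptor and the NG2 proteoglycan and that persist in the adult brain. The bHLH factors Olig1 and Olig2 and the HMG-box factor Sox10 set the lineage, and MYRF then turns on the genes of the sheath.

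Upstream sequence is shown for the lineage factor Olig2 and for 4 sheath or node genes, picked because they differ in the motifs found there. A link between these motifs and the values on the arrays was not tested. Each is the 150 bases just upstream of the outermost annotated start, from RefSeq on GRCm38.p6, written 5′ to 3′ on the gene's own strand. Capitals mark matches on either strand to the SOX core ACAAT, the E-box CAGCTG, or a MYRF motif, CTGGCAC or CTGGTAC. The printed matches do not overlap each other.
Olig2, chr16:91225400-91225549, plus strand: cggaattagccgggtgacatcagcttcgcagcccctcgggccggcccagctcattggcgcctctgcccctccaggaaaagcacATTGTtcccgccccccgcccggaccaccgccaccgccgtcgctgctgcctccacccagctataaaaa
Mog, chr17:37023399-37023548, minus strand: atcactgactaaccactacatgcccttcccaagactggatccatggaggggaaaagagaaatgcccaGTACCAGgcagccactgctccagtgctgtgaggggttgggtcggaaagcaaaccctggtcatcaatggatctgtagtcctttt
Mag, chr7:30914923-30915072, minus strand: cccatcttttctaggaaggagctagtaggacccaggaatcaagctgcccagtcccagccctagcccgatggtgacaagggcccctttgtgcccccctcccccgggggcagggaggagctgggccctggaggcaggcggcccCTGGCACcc
Hapln2, chr3:88027512-88027661, minus strand: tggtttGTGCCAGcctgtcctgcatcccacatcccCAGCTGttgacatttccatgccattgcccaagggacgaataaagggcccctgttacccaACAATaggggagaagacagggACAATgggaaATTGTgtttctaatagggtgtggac
Mobp, chr9:120149592-120149741, plus strand: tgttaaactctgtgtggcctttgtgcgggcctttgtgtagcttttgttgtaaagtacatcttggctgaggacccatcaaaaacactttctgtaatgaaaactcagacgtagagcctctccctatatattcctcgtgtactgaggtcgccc
The Olig2 stretch held 1 SOX core and the Mog stretch 1 MYRF motif ending in TAC. Mag held 1 MYRF motif close to its start, Hapln2 held 3 SOX cores, 1 E-box and 1 MYRF motif, and Mobp held none of these letters.

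RefSeq windows of 300 bases, from 250 before to 50 after a start, were at hand for 27 of the 36 genes, in 38 windows. The SOX core was in 15 of the 38, or 39.5%, against 31.0% of the 32851 windows of all genes. The E-box was in 13.2% against 16.3%. Either MYRF motif was in 7 of the 38, or 18.4%, against 7.1% of all windows. These are descriptions of letters, and a match is not a bound site.

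No difference between Dp3Yah and control mice was detected for any of the 36 genes. With limma, 0 of 36 passed an adjusted p under 0.05 and 0 of 36 an unadjusted p under 0.05, where the shares of all genes that did so were 0.0150% and 5.08%. The fold change rank test, the study's own kind of test, called 0 of 36 against 4.59% of all genes. The values of the 2 groups overlapped for all 36, whereas 0.913% of all genes showed groups apart. The differences (Dp3Yah minus control) were 19 positive and 17 negative and ran from -0.14 for Nkx6-2 to 0.17 for Aspa on the log2 scale. Their median was 0.0075 over the 8 precursor genes and -0.0083 over the 28 mature genes, beside -0.0047 over all genes.

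The precision sets what could have been seen. The 95% interval of the difference lay inside 1.5-fold in either direction for all 36 genes, beside 19852 of all 19939. It lay inside 1.2-fold for 16 of the 36, beside 17607 of all 19939. These 16 were 6 of the 8 precursor genes and 10 of the 28 mature genes. Of 17 measured genes of the duplicated interval, 11 of them above background, 12 also had an interval inside 1.5-fold. The bounds are therefore bounds on array values and not on the amount of RNA. The intervals are those of single genes. A call after adjustment over all genes needs a larger difference than they show, so that a difference beyond an interval's width could also go uncalled. In a whole-tissue sample, fewer oligodendrocytes and less RNA per oligodendrocyte cannot be told apart.

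**Figure D1:**
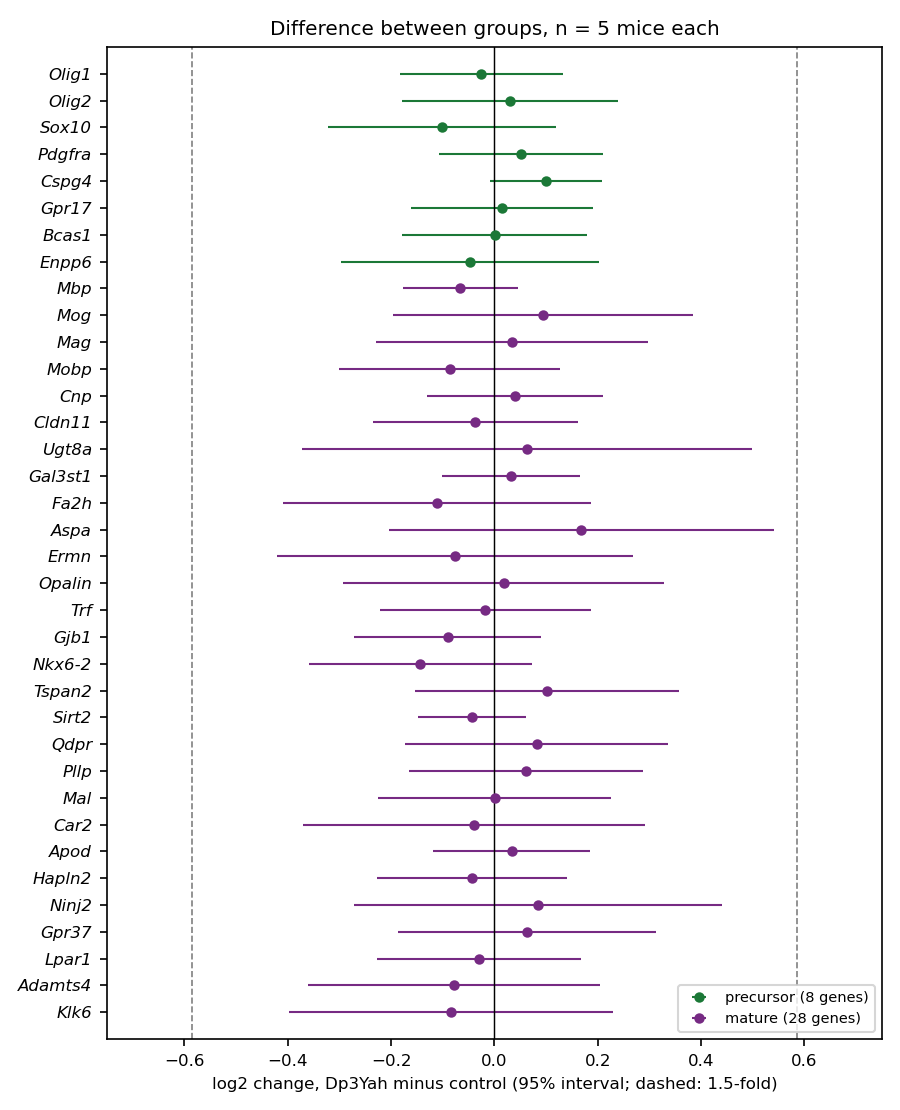
Log2 difference (Dp3Yah minus control) of each of the 36 genes on the horizontal axis, with its 95% interval from limma, n = 5 mice per group; green marks precursor and purple mature genes, and dashed lines mark 1.5-fold. All 36 intervals cross 0 and lie inside the dashed lines.

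Of the lineage factors, Olig1 gave log2 values of 9.09, 8.83, 8.81, 9.05 and 9.02 in Dp3Yah replicates 1 to 5. In controls 1 to 5 it gave 8.93, 9.04, 8.80, 9.01 and 9.14. The highest and the lowest of the 10 values were both controls, and the difference was -0.03 with a 95% interval from -0.18 to 0.13, or 0.881 to 1.10 as a fold. Olig2, whose upstream stretch is printed above, gave 8.14, 7.91, 7.71, 8.0 and 8.20 in Dp3Yah mice and 8.12, 7.85, 8.0, 7.74 and 8.11 in controls. Its extremes were both Dp3Yah mice, and the difference was 0.03 (interval -0.18 to 0.24), or 0.883 to 1.18 as a fold. Sox10 gave 7.89, 7.79, 7.43, 7.88 and 8.0 in Dp3Yah mice and 7.99, 7.69, 7.78, 8.07 and 7.97 in controls. Dp3Yah replicate 3 alone was low, the groups overlapped, and the difference was -0.10 (interval -0.32 to 0.12).

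Pdgfra, the receptor for the mitogen PDGF-A, had means of 8.26 ± 0.11 and 8.21 ± 0.15 (SD, n = 5 each), a difference of 0.05. Cspg4, which codes for the NG2 proteoglycan of precursors and also of pericytes, had the lowest p of the 36. It gave 7.13, 7.25, 7.05, 7.12 and 7.01 in Dp3Yah mice and 7.09, 6.98, 7.05, 6.97 and 6.98 in controls. Of the 5 Dp3Yah mice, 4 were above the control mean, yet replicate 5 was not and the ranges overlapped. The difference was 0.10 (SE 0.0497, limma, adjusted p = 0.922). Pericytes, which share Cspg4, were covered only by a list that joins mural with endothelial markers. Of its 18 markers 17 were measured, with a median difference of -0.05. At an unadjusted p under 0.05 with limma, 1 of 17 was lower and 0 higher, beside 516 lower and 497 higher of all 19939 genes. The part of pericytes in the Cspg4 values was not tested.

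The 3 genes of newly forming cells did not pass the test either. Gpr17, a receptor found on cells that are leaving the precursor state, had a difference of 0.01, and Bcas1, a marker of early myelinating cells, one of 0.0004. Enpp6, a choline phosphodiesterase of newly forming oligodendrocytes, was nearer to the background level, with 5.58 to 6.17 in Dp3Yah mice and 5.80 to 6.23 in controls.

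**Figure D2:**
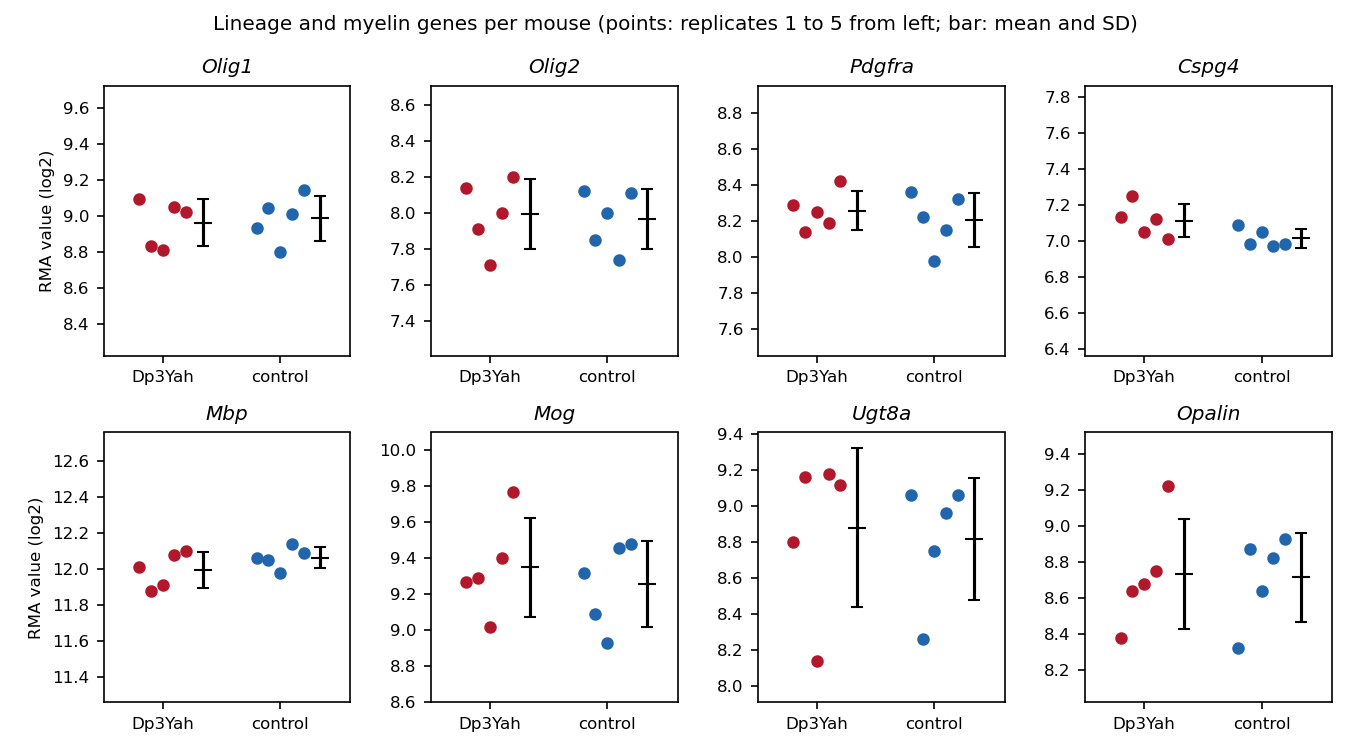
Log2 values of 8 genes, 1 point per mouse (replicates 1 to 5 from left), Dp3Yah in red and control in blue, with the mean and SD of each group as a bar; every vertical axis spans the same number of log2 units but sits at its own level. The groups overlap in each of the 8, and the points of Ugt8a spread most, from 8.14 to 9.18.

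Among the 12 genes of the sheath itself, 7 differences were positive and 5 negative, with a median of 0.01. Mbp, the basic protein that compacts the membrane on its cytoplasmic side, gave 12.01, 11.88, 11.91, 12.08 and 12.10 in Dp3Yah mice. In controls it gave 12.06, 12.05, 11.98, 12.14 and 12.09. Replicates 2 and 3 of Dp3Yah were the lowest, and the difference was -0.07 (interval -0.18 to 0.05). Mog, a protein of the outermost surface, gave 9.27, 9.29, 9.02, 9.40 and 9.77 in Dp3Yah mice and 9.32, 9.09, 8.93, 9.46 and 9.48 in controls. Dp3Yah replicate 5 was its highest mouse and control replicate 3 its lowest, and the difference was 0.09 (interval -0.20 to 0.38). Mag, the axon-facing glycoprotein, ran from 9.72 to 10.52 in Dp3Yah mice and from 9.89 to 10.25 in controls. Cnp, the enzyme that keeps cytoplasmic channels in myelin open, had a difference of 0.04, and Cldn11, the tight junction claudin of the sheath, one of -0.04. Mobp, Gjb1 (the gap junction protein connexin 32), Ermn, Opalin, Tspan2, Pllp and Mal had differences between -0.09 and 0.10.

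The 4 genes of lipid supply included the least even of the 36 between mice, Ugt8a and Aspa. Ugt8a, which makes galactosylceramide, gave 8.80, 9.16, 8.14, 9.18 and 9.12 in Dp3Yah mice and 9.06, 8.26, 8.75, 8.96 and 9.06 in controls. Dp3Yah replicate 3 and control replicate 2 were low and the other 8 mice lay between 8.75 and 9.18, so that the difference of 0.06 carried an interval from -0.37 to 0.50. Aspa, which splits N-acetylaspartate into acetate for lipid synthesis, gave 7.44, 7.73, 7.20, 7.68 and 8.32 in Dp3Yah mice. Controls gave 7.55, 7.17, 7.42, 7.72 and 7.67, so that Dp3Yah replicate 5 stood well above them, replicate 2 was just above the highest control, and the other 3 Dp3Yah mice lay within the control range. Its difference was 0.17 (interval -0.20 to 0.54). Fa2h, which hydroxylates the fatty acids of myelin lipids, had a difference of -0.11 and Gal3st1, which sulfates galactosylceramide, one of 0.03.

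The 5 genes of metabolism and transport had differences between -0.04 and 0.08. Trf carries iron, Car2 is a carbonic anhydrase, Sirt2 a deacetylase, Qdpr recycles tetrahydrobiopterin and Apod is a lipid carrier. Car2 gave 10.36, 10.40, 9.86, 10.56 and 10.59 in Dp3Yah mice and 10.50, 9.87, 10.46, 10.54 and 10.60 in controls. As with Ugt8a, Dp3Yah replicate 3 and control replicate 2 were the low mice, and the other 8 lay between 10.36 and 10.60. Sirt2 had the lowest within-group SD of the 36 genes, 0.0707, with 9.59 to 9.73 in Dp3Yah mice and 9.56 to 9.75 in controls. Nkx6-2, a homeodomain factor of mature oligodendrocytes, gave 6.45, 6.26, 6.44, 6.58 and 6.48 in Dp3Yah mice and 6.61, 6.26, 6.47, 6.68 and 6.89 in controls. All 5 Dp3Yah values were below the control mean, within the control range, for a difference of -0.14 (interval -0.36 to 0.07, limma, adjusted p = 0.934). The 6 surface and secreted products, Hapln2 (a link protein of the node of Ranvier), Ninj2, Gpr37, Lpar1 (a lysophosphatidic acid receptor), Adamts4 (a protease of extracellular matrix) and the protease Klk6, had differences between -0.08 and 0.08. Klk6 gave 7.08, 7.29, 6.78, 7.24 and 7.30 in Dp3Yah mice and 7.66, 6.93, 6.88, 7.21 and 7.43 in controls, so that its highest mouse was control replicate 1. Ninj2, a ninjurin adhesion protein, gave 7.62, 7.66, 7.18, 7.89 and 8.21 in Dp3Yah mice and 7.50, 7.30, 7.62, 7.82 and 7.89 in controls. Both its lowest and its highest mouse were in the Dp3Yah group.

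Most of the 36 genes spread more between mice of a group than the typical gene. The within-group SD had a median of 0.19 over the 36 genes (0.15 precursor, 0.21 mature) against 0.0874 over all genes, and 33 of the 36 were above that figure. The exceptions were Cspg4, Mbp and Sirt2. For Ugt8a the SD was 0.39, and 99.6% of all genes had a lower one. Aspa, Ninj2 and Ermn followed, with SDs of 0.34, 0.32 and 0.31. All 36 genes were above background, but only 14055 of the 19939 genes were, and the SDs were not compared with those genes alone.

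The 28 mature genes varied together from mouse to mouse. Each gene was set against its mean over the 10 mice, and the median over the 28 was -0.04, -0.05, -0.25, 0.08 and 0.21 in Dp3Yah replicates 1 to 5 and 0.02, -0.09, -0.13, 0.11 and 0.15 in controls 1 to 5. Each group thus had low and high mice, and these shared their numbers, with replicate 3 lowest and replicate 5 highest in both groups. The group means of these medians were -0.01 and 0.01. Dp3Yah replicate 5 was above the mean in 27 of the 28 genes and the highest of all mice in 14. Control replicate 5 was above it in 27 and control replicate 4 in 26. Dp3Yah replicate 3 was below the mean in 26 and the lowest of all mice in 12, and control replicate 3 was below it in 26 and the lowest in 8.

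**Figure D3:**
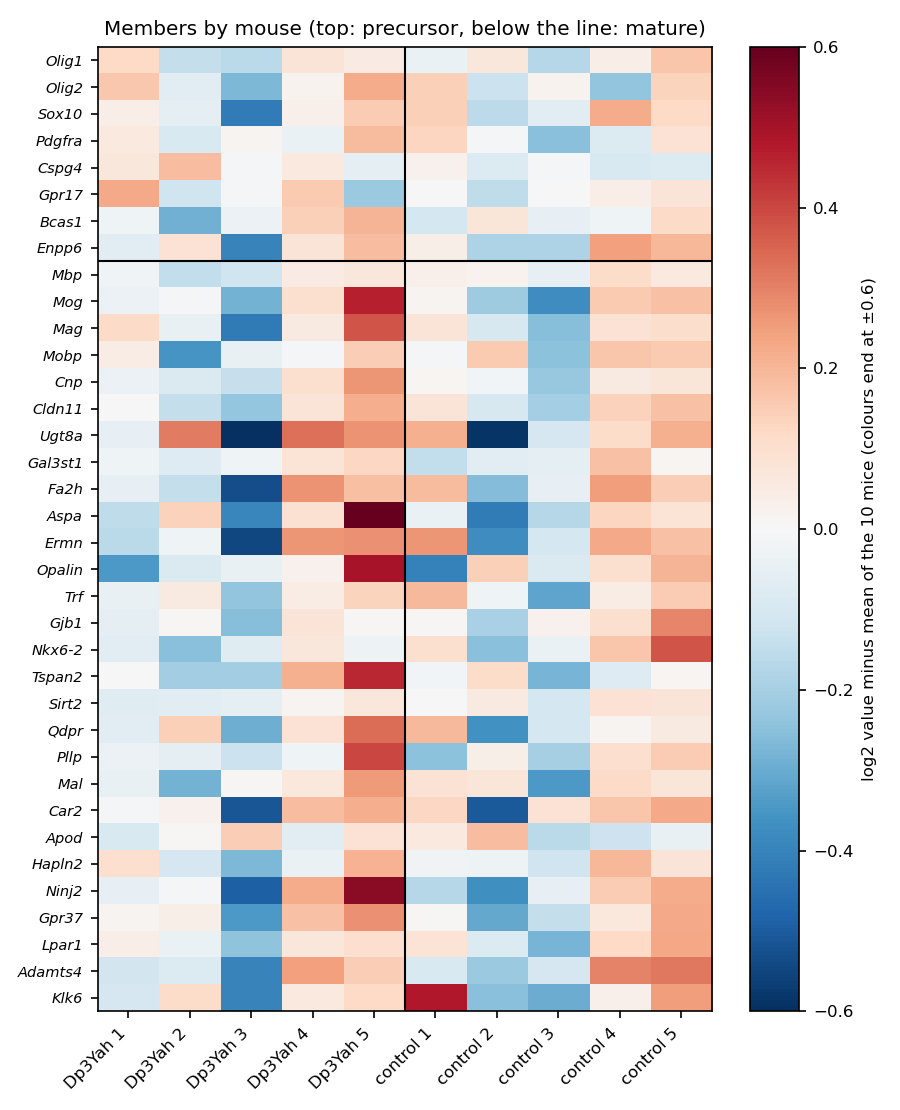
Log2 value minus the gene's mean over the 10 mice, as colour (red above, blue below, ends at ±0.6), for the 36 genes in rows, precursor above the line and mature below it, and the mice in columns with Dp3Yah left of the line. Single columns stand out on both sides, with Dp3Yah replicate 5 high and Dp3Yah replicate 3 low in most mature genes.

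The precursor genes followed this order less closely. Their medians were 0.06, -0.08, -0.10, 0.07 and 0.17 in Dp3Yah mice and 0.03, -0.10, -0.06, 0.01 and 0.12 in controls. Over deviations from the group means in the 10 mice, the correlation between pairs of genes averaged 0.57 in the mature set, where 355 of 378 pairs were positive. It averaged 0.22 in the precursor set (24 of 28 pairs positive), 0.36 between a precursor and a mature gene, and 0.03 over pairs of all genes. Over 41 further oligodendrocyte genes, described below, it averaged 0.48. The figure over all genes includes genes below background, and genes above background were not taken alone. All genes of a mouse share 1 dissection and 1 array, so these correlations are descriptions with no test. Cspg4 and Gpr17 stood outside the pattern, since Dp3Yah replicate 5, high in most of the others, was the lowest of the Dp3Yah mice in both. Among the mature genes Apod did so too, with 12.00, 12.10, 12.24, 12.03 and 12.18 in Dp3Yah mice and 12.15, 12.28, 11.93, 11.97 and 12.05 in controls. Its highest Dp3Yah mouse was replicate 3, the lowest in most other mature genes of that group.

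The mature genes were not all low in the same mice. In the lipid genes Dp3Yah replicate 3 had a median of -0.46 and control replicate 2 of -0.34, while control replicate 3 was at -0.08. In the sheath genes control replicate 3 was low at -0.21 and control replicate 2 was at 0.00. Control 2 was above control 3 in 10 of the 12 sheath genes and below it in all 4 lipid genes. The exceptions among the sheath genes were Ermn at -0.27 and Gjb1 at -0.22, and the lipid gene Gal3st1 was close to even at -0.02. The largest of these log2 differences were 0.42 in Mal, 0.40 in Mobp and 0.39 in Tspan2 upwards and, over all mature genes, -0.59 in Car2, -0.49 in Ugt8a and -0.33 in Ninj2 downwards. Both are single mice of the same group, and the contrast between them was chosen after the values were seen and has no test.

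Markers of tissue next to the hippocampus also differed between the mice. The 11 thalamic markers, all above background, had medians of 0.12, -0.08, -0.29, -0.24 and 0.27 in Dp3Yah mice and 0.09, -0.18, -0.40, 0.21 and 0.46 in controls. Their mean level ran from 7.05 to 7.83 in Dp3Yah mice and from 7.02 to 7.97 in controls. The mice low in mature genes, Dp3Yah replicate 3 and control replicate 3, were the lowest in thalamic markers, and both replicates 5 were the highest, but Dp3Yah replicate 4 was low in thalamic markers and not in mature genes. The neocortical markers, 11 of 13 measured and all above background, ran otherwise, with medians of -0.05, -0.37, 0.12, 0.15 and -0.11 in Dp3Yah mice and -0.10, 0.19, -0.01, 0.06 and -0.03 in controls. Their mean level ran from 7.65 to 8.24 and from 7.95 to 8.25. Dp3Yah replicate 3, low in the mature genes, was above the mean in these, and Dp3Yah replicate 5 below it. The part of adjoining tissue in the values of the 36 genes was not tested. Choroid plexus markers varied more, with a mean level over 13 genes, 11 of them above background, from 5.81 to 7.31 in Dp3Yah mice and from 5.75 to 7.42 in controls. Both replicates 5 were the highest of their groups in these and in the mature set, and both replicates 3 and control replicate 2 were low in both. Both replicates 4 were low in these and above the mean in the mature set, and Dp3Yah replicate 2 was high in these and below it. Of 7 markers of Schwann cells, the myelinating cells of peripheral nerve, 5 were measured and 3 were above background.

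**Figure D4:**
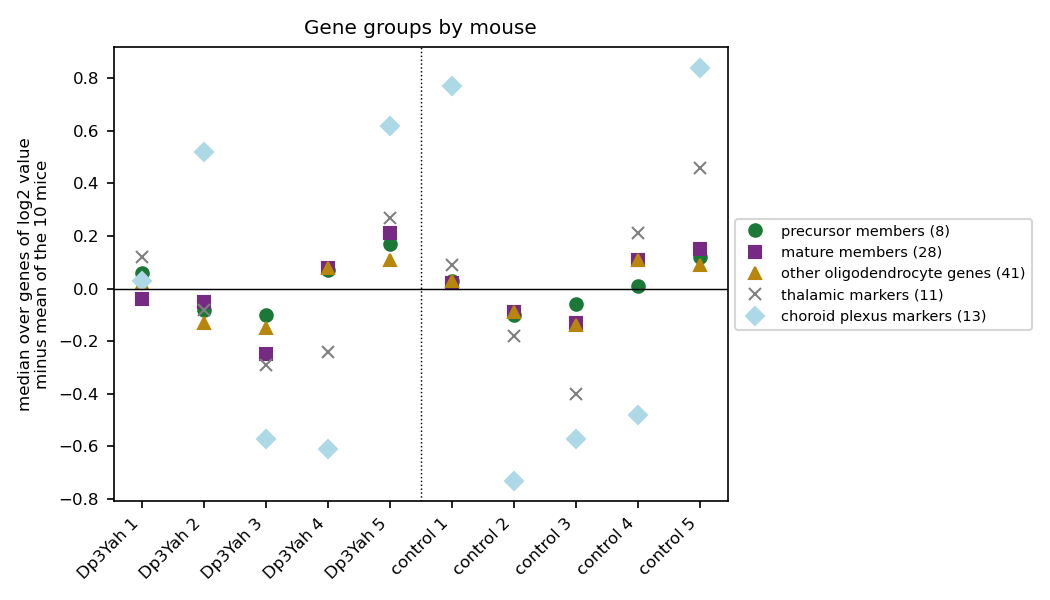
Median over genes of the log2 value minus the gene's mean over the 10 mice, for 5 gene groups (symbols; number of genes in brackets), with the mice on the horizontal axis and the dotted line between Dp3Yah and control. The precursor, mature and other oligodendrocyte genes lie close to each other in each mouse, between -0.25 and 0.21, and choroid plexus markers range from -0.73 to 0.84.

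The other genes of the lineage were set beside the 36. Of 45 further genes of oligodendrocytes and their precursors, 41 were measured and all 41 were above background. Their differences had a median of -0.01, with 16 positive and 25 negative, and 0 of 41 passed an adjusted p under 0.05 with limma. The rank test called 2 of 41, beside 4.59% of all genes, and the groups did not overlap in 1 of 41, beside 0.913%. At an unadjusted p under 0.05 with limma there was 1 of 41, beside 5.08% of all genes. That gene was Slc45a3, a solute carrier, with 5.20, 5.00, 5.18, 5.21 and 5.23 in Dp3Yah mice and 5.27, 5.26, 5.23, 5.47 and 5.37 in controls. The difference was -0.16 (SE 0.0579, limma, adjusted p = 0.922) at a level close to background. Dp3Yah replicate 3, low in the mature set, was also the lowest mouse in 16 of these 41 genes. Controls 4 and 5 and Dp3Yah replicate 5 were the highest in 10, 9 and 9.

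Of 22 genes of cholesterol synthesis, which feeds the growing membrane, 19 were measured and 0 passed an adjusted or an unadjusted p under 0.05 with limma. Mvk and Nsdhl had differences of 0.10 and 0.11 and Mvd and Pmvk of -0.10 and -0.09. The mice ranked in another order, with the highest median, 0.11, in Dp3Yah replicate 3. Of 33 ligands, receptors and inhibitors that act on the lineage, 32 were measured and 0 passed either p with limma, while the rank test called 3, beside 4.59% of all genes. The lowest p were those of Axin2, a feedback inhibitor of WNT signalling, at -0.21, and of Id4, an inhibitor of bHLH factors, at 0.14, both with an adjusted p of 0.922 by limma. Fgf2, a mitogen of precursors, had a difference of 0.11 and Chrm1, a muscarinic receptor, one of -0.08. Of the other glia, 0 of 14 astrocyte markers passed an unadjusted p under 0.05 with limma, beside 5.08% of all genes. At that p, 4 of 15 measured microglia markers were higher, beside 497 of all 19939 genes. After adjustment over all genes 0 of either list passed.

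Genes of the duplicated interval served as a check of the labels. Of its 19 listed genes 17 were measured, 11 of them above background, with a median difference of 0.28. At an unadjusted p under 0.05 with limma, 12 were higher and 0 lower, beside 497 higher and 516 lower of all 19939 genes. An adjusted p under 0.05 was passed by 3 of the 17, beside 0.0150% of all genes. Of the genes in the interval, Jam2 has a known part in where myelin forms. It codes for a junctional adhesion molecule that keeps oligodendrocytes off neuronal cell bodies. Jam2 gave 9.52, 9.46, 9.87, 9.52 and 9.69 in Dp3Yah mice and 9.08, 9.28, 8.85, 9.07 and 9.08 in controls. All Dp3Yah values were above all control values, and the difference was 0.54 (SE 0.0868), with an adjusted p of 0.0998 by limma that missed the threshold. The highest Jam2 value was that of Dp3Yah replicate 3 and the lowest that of control replicate 3. Both had the lowest mature median of their group, so that the mouse lowest in mature genes was highest in Jam2 among Dp3Yah mice and lowest among controls. These mice were singled out after the values were seen, and no test was made.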

How the data were processed

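The 10 arrays were Affymetrix Mouse Gene ST arrays. The authors deposited log2 values, 1 for each probe set. The submitters' processing notes list limma, the mm10 build and RMA, which corrects background, normalises between arrays and summarises probes. For these tools no version was found in the sources used here. Array medians ran from 5.64 to 5.71, and no pair of arrays was identical. An array gives no read depth, so the number of mice limits the precision.

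Of 35556 probe sets, 21789 were paired with 1 gene, 1621 with several and left out, and 12146 were unnamed here. The probe set with the highest mean stood for a gene, which left 19939 genes. Coordinates came from RefSeq GRCm38.p6, which held 19856 of them. A level on one probe set was not compared with that on another.

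The groups were compared by a two-sided moderated test without covariates (limma 3.58.1 under R 4.3.3), fitted to the whole table, adjusted by Benjamini-Hochberg over all genes and tested on simulated data. The rank test repeats the authors' FCROS, a method that ranks all pairwise fold changes, trimmed at 0.25 and called below 0.025 or above 0.975. All members were named, and of other lists up to 4 genes with the lowest p; Jam2 was added as a duplicated gene with a part in myelination. Members and lists were chosen with earlier results of these data known. The alternatives were a replicate block, other probe set rules, a filter on background, another normalisation or centring, array weights, a robust trended variance, and the omission of each mouse in turn.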

Additional observations from a re-analysis of the deposited data

Results flagged for a closer look

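In 3 of 72 pairs of a gene and a group, 1 mouse stood apart from the other 4 of its group by Dixon's criterion. Chance flags about 1 in 20 groups. Pllp, a plasma membrane proteolipid of myelin, was at 9.31 in Dp3Yah replicate 5, with the other 4 Dp3Yah mice at 8.78 to 8.88. Mal, a proteolipid that sorts myelin components, was at 9.64 in control replicate 3, with the other 4 controls at 10.06 to 10.10. Car2, the carbonic anhydrase, was at 9.87 in control replicate 2, with the other 4 controls at 10.46 to 10.60. The values are log2, and the cause was not tested.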

How the results depend on the processing

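The count of 0 of 36 genes at an adjusted p under 0.05 was the same in all 18 limma alternatives, where the lowest adjusted p among the 36 ran from 0.715 to 0.999. At an unadjusted p under 0.05 the count moved from 0 to 1 with the replicate number as a block (Nkx6-2), and ran from 0 to 1 when each mouse was left out: Cspg4 without Dp3Yah replicate 5 or control replicate 1, and Nkx6-2 without control replicate 2. The labels do not say what a replicate number shares. Over all genes, same-numbered mice correlated at 0.04, -0.36, 0.07, 0.20 and 0.32 in their deviations, so the numbers were not taken as pairs. Pairs 4 and 5 were above their highest correlation with another number, 0.17 and 0.07. Pairs 1, 2 and 3 were below theirs, 0.10, 0.41 and 0.50. In the 36 genes the medians of same-numbered mice were set side by side. For numbers 1 to 5, Dp3Yah then control, the mature medians were -0.04 and 0.02, -0.05 and -0.09, -0.25 and -0.13, 0.08 and 0.11, and 0.21 and 0.15. The precursor medians were 0.06 and 0.03, -0.08 and -0.10, -0.10 and -0.06, 0.07 and 0.01, and 0.17 and 0.12. Mice of different numbers could be as near, since Dp3Yah replicate 3 and control replicate 2 were both at -0.10 in the precursor genes. The medians were set side by side after the values were seen, and pairing by number was not tested on them. When each mouse was left out, the median log2 difference ran from -0.06 to 0.04 over the mature genes and from -0.03 to 0.05 over the precursor genes. The sign of the difference turned in at least 1 alternative for 25 of the 36 genes and was kept in all 18 for 11. Of 648 values, 0 moved by more than 1 within-group SD, but most could not have done so. With 1 probe set per gene, the probe set rules, background filter, replicate block and robust trended variance cannot change a difference or its sign. Leaving out 1 of 5 mice always moves it by less than 1 such SD. The count of 0 is therefore no measure of robustness. Dp3Yah replicate 2 had the lowest array weight, 0.478. As a measure of precision, the 95% interval lay inside 1.2-fold for 16 of the 36 genes, beside 17607 of all 19939.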
